A study of Mus musculus with 4 samples.

Results

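Natural killer (NK) cells and related innate lymphocytes were 74 of 15319 cell barcodes in 10x Genomics 3' single-cell libraries of immune cells sorted from mouse mammary tumours. A barcode was counted as a cell when it held 500 UMIs or more (unique molecular identifiers, 1 per captured RNA molecule) and 250 genes or more, with no more than 10% of its UMIs mitochondrial. It entered the set with at least 2 UMIs of Ncr1, Klrb1c and Klre1 together, at most 1 UMI of the T cell genes Cd3d and Cd3e, at most 2 of the macrophage genes C1qa, C1qb and C1qc, and at most 2 of the B cell genes Cd79a, Cd79b and Ms4a1. The PyMT library gave 41 such barcodes of 7444 and the Jagged1/PyMT library 33 of 7875. The members were chosen by the UMIs of these genes, so the levels of the selecting genes are a description and not a finding.

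NK cells and the other group 1 innate lymphoid cells are lymphocytes without rearranged antigen receptors that kill stressed or transformed cells and release cytokines and chemokines. Killing runs through perforin, which opens the target membrane, and through granzymes, proteases that enter the target and start its death. Conventional NK cells depend on the transcription factor Eomes and circulate, while other group 1 cells stay in tissue, carry adhesion molecules such as the CD103 integrin chain encoded by Itgae, and can lack Eomes. In mammary tumours of PyMT mice, both kinds have been described among the cytotoxic innate lymphocytes.

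The mice were FVB/NJ animals of 12 weeks. All carried PyMT, the polyoma virus middle T oncogene that drives mammary tumours, and 1 genotype also carried Jagged1, named for a Notch ligand. The series asks which immune cells enter the tumours of the PyMT (elsewhere in the labels WT/PyMT) and Jagged1/PyMT mice. The labels name 2 samples per genotype, but both samples of a genotype share 1 deposited matrix in which barcodes cannot be assigned to a sample, so each genotype was 1 library. The promoters that drive the transgenes, and the number of animals per sample, are not given in the labels. No comparison between the libraries has a replicate check, and no test was possible: intervals below are 95% intervals that cover counting error only, and a ratio compares these 2 libraries, not the genotypes.

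The label of the set was checked on genes that did not select it. Nkg7, a cytotoxic granule membrane protein, had a UMI in 41 of 41 PyMT barcodes and in 32 of 33 Jagged1/PyMT barcodes. Fcer1g, the signalling chain that pairs with NCR1 and Fc receptors, had a UMI in every gated barcode of both libraries. Trac, the constant region of the alpha T cell receptor chain, had 0 UMIs in all 74 barcodes, which, at 3 counts, allows shares of barcodes with a UMI of up to 7.32% in PyMT and 9.09% in Jagged1/PyMT. The same gene was seen in 53.2% of PyMT and 57.7% of Jagged1/PyMT CD8 T cell barcodes (n = 1105 and 652). Those held at least 2 UMIs of Cd3d and Cd3e, at least 2 of Cd8a and Cd8b1 and none of Cd4. They also held fewer than 2 UMIs of the selecting genes and met the gate's limits on macrophage and B cell genes. Other T cell transcripts were present in the gate: Trbc2, a constant region of the beta chain, had a UMI in 17 of 41 and 14 of 33 gated barcodes (77.4% and 74.1% of CD8 T cell barcodes). Cd3g, a chain of the CD3 complex, had a UMI in 10 and 5 gated barcodes (92.2% and 92.3% of CD8 T cell barcodes). Nkg7 had a UMI in 65.5% and 82.7% of those CD8 T cell barcodes, but Fcer1g in 3.35% and 16.3%. Fcer1g is also a myeloid gene and was in 93.8% and 97.9% of macrophage barcodes.

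Most transcripts that define the other helper innate lymphocytes were not detected. Of the 12 genes listed for type 2 innate lymphoid cells, 10 had 0 UMIs in PyMT and 8 in Jagged1/PyMT, among them the receptors Il1rl1 and Il17rb and the cytokine Il5 in both. Of the 12 type 3 genes, 7 and 8 had 0 UMIs, including the cytokines Il22 and Il17a in both libraries. At this depth a count of 0 allows levels up to 14.8 CPM for PyMT and 13.2 for Jagged1/PyMT, where CPM is a gene's UMIs scaled to a fixed total of UMIs in the group. Gata3, a factor that NK cells also use, had 14 and 16 UMIs. The type 3 gene that passed a minimum of 50 UMIs was Ltb, a lymphotoxin chain that many lymphocytes make, at 541 and 652 CPM.

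Ncr1, the activating receptor NKp46, was found in 36 of 41 PyMT barcodes and 30 of 33 Jagged1/PyMT barcodes at 526 (431 to 636) and 511 (423 to 613) CPM. In CD8 T cell barcodes it had a UMI in 0.0905% (PyMT) and 0.307% (Jagged1/PyMT), at median depths of 4841 and 4763.5 UMIs against 3742 and 5041 in the gated barcodes. Barcodes with 2 or more UMIs of Ncr1, Klrb1c and Klre1 together were left out of the T, CD8 T, B and macrophage barcodes. The low shares of Ncr1 there thus follow in part from that limit and are a description. Klre1, a lectin receptor, was found in 22 PyMT and 12 Jagged1/PyMT barcodes at 192 (136 to 262) and 110 (71.3 to 163) CPM. Klrb1c, the NK1.1 gene, was sparse, with 12 UMIs in 10 PyMT barcodes and 9 UMIs in 8 Jagged1/PyMT barcodes. UMIs of 2 or more of these 3 genes were present in 25 PyMT and 14 Jagged1/PyMT barcodes.

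Barcodes just inside the threshold, with a sum of exactly 2, numbered 13 and 11, and barcodes just outside, with a sum of 1 and all other limits met, 16 and 9. Fcer1g was present in 100% of the 13 and the 11 inside, and in 16 of 16 and 8 of 9 outside. Eomes had a UMI in 69.2% inside and 56.2% outside in PyMT, and in 36.4% inside and 11.1% outside in Jagged1/PyMT. Barcodes left out at a sum of 1 therefore also carried Fcer1g, so 74 is a count under this threshold and not of all such cells.

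**Figure D1:**
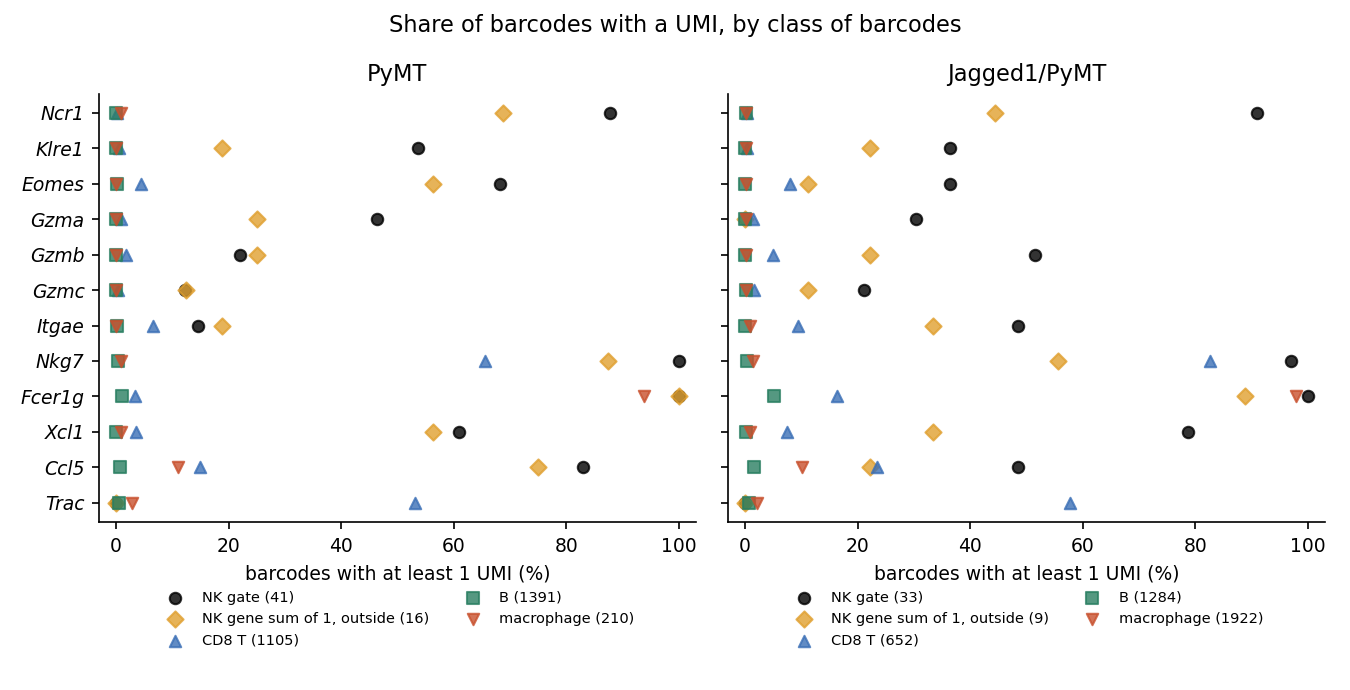
Share of barcodes with at least 1 UMI of each gene (horizontal axis, percent) in each library, for the NK gate, barcodes just outside it, and CD8 T, B and macrophage barcodes; numbers of barcodes stand in the legend. Ncr1 lay at 87.8% and 90.9% in the gate and under 1% in the CD8 T, B and macrophage barcodes, while Trac lay at 0% in the gate. Barcodes with 2 or more UMIs of Ncr1, Klrb1c and Klre1 were left out of the CD8 T, B and macrophage barcodes, which sets part of the Ncr1 difference.

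A few barcodes carried RNA of other cells. Holding at least 10 UMIs of the myeloid genes Lyz2, S100a8 and S100a9 were 1 PyMT barcode and 3 Jagged1/PyMT barcodes. Some results that rest on them are also given without them. Summed macrophage markers (13 genes) ranged up to 279 UMIs in a PyMT barcode and 229 in a Jagged1/PyMT barcode, with medians of 0 and 1. Summed dendritic cell markers (14 genes) ranged up to 100 and 1171, with medians of 0 and 2. Summed B cell markers (10 genes, 8 of them at 0 in each library, Igkc included) ranged up to 3 and 6, with medians of 0. Most of those UMIs were of Ighm, the IgM heavy chain, at 34.4 and 132 CPM. Summed neutrophil markers (8 genes) ranged up to 3 and 162, with medians of 0. Summed T cell markers (15 genes, 8 of them at 0 in each library) ranged up to 15 and 22, with medians of 2. No barcode sequence occurred among the gated barcodes of both libraries, although 70 called barcodes of all types did.

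The gated barcodes fell into separate granzyme patterns. In PyMT, Gzma had 291 UMIs in 19 barcodes and Gzmc 85 UMIs in 5, and no barcode held both. In Jagged1/PyMT, Gzma had 155 UMIs in 10 barcodes and Gzmc 308 UMIs in 7, and again none held both. Eomes and Gzmc shared 0 PyMT barcodes and 1 Jagged1/PyMT barcode. Gzmb was less exclusive: it met Gzma in 4 of its 9 PyMT barcodes and in 4 of its 17 Jagged1/PyMT barcodes, and Gzmc in 5 barcodes of each library. Barcodes were divided by the larger of the sums Gzma + Eomes and Gzmb + Gzmc, with at least 2 UMIs in the larger, and barcodes that reached neither were left unsplit.

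Gzma encodes the tryptase granzyme A and lies in GRCm38 on chromosome 13 at 113093825 to 113100981 (minus strand, GENCODE vM21). Eomes, the T-box factor of conventional NK cells, lies on chromosome 9 at 118478212 to 118486132 (plus strand). Gzmb encodes granzyme B, which cuts after aspartate, and Gzmc encodes granzyme C. These genes lie near each other on chromosome 14, at 56258838 to 56262260 and 56231441 to 56234656 (both minus strand). The genome build the authors used is not given in the sources used here. Of the 451 stretches of 50 bases in the last 500 bases of the longest GENCODE transcript, none of Gzma, Gzmb, Gzmc or Eomes occurred in a transcript of another gene, so near-identical copies were not seen to share their 3' reads.

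The 250 bases before the RefSeq start sites of these 4 genes are shown because the genes divide the set. They come from GRCm38.p6, at chr13:113100982-113101231 (minus), chr9:118477939-118478188 (plus), chr14:56262335-56262584 (minus) and chr14:56234658-56234907 (minus). Capitals mark matches on either strand to the letters TCACAC (T-box), TGTGGT (RUNX), TTCNNNGAA (STAT), TGANTCA (AP-1) and TGGGAA (RBPJ, the DNA-binding partner of Notch), and no matches overlapped.
Gzma: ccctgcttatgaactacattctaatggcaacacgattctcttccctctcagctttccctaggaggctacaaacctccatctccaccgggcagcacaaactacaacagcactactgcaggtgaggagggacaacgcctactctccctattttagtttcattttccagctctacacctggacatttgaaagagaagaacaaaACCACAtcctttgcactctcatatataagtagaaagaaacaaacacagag
Eomes: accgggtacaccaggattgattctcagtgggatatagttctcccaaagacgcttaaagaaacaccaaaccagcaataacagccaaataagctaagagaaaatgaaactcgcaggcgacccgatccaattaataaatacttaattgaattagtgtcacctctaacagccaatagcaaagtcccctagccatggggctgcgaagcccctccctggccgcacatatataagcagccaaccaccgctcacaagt
Gzmb: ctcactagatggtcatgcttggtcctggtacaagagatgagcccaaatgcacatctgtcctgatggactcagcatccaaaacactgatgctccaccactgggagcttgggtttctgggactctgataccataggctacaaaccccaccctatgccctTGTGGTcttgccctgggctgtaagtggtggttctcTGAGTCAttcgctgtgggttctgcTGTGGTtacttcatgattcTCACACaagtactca
Gzmc: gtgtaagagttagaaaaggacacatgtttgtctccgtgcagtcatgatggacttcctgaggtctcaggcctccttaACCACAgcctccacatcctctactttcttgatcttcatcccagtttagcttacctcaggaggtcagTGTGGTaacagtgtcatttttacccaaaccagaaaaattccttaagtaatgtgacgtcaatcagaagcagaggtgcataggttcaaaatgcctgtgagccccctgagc
RUNX letters occurred 1 time before Gzma, 2 times before Gzmb and 2 times before Gzmc, and 14.0% of 32536 such windows of all RefSeq genes hold them. Gzmb also held the AP-1 letters (6.73% of windows) and the T-box letters (12.1%). The STAT letters (7.04%) and RBPJ letters (21.6%) were in none of the 4 windows, and the Eomes window held no match. A match is a description of the letters, and the reference strain is not FVB/NJ.

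In PyMT, 28 of 41 barcodes were led by Gzma and Eomes (68.3%, exact binomial interval 51.9 to 81.9), 5 by Gzmb and Gzmc (12.2%, 4.08 to 26.2) and 8 were unsplit. In Jagged1/PyMT, 12 of 33 were led by Gzma and Eomes (36.4%, 20.4 to 54.9), 15 by Gzmb and Gzmc (45.5%, 28.1 to 63.6) and 6 were unsplit. The share led by Gzmb and Gzmc was thus higher in the Jagged1/PyMT library, and under this rule the counting intervals of that share did not overlap. This is a division by the value of 4 genes and not of named cell types. The sums were within 2-fold of each other in 0 PyMT and 3 Jagged1/PyMT barcodes.

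The Gzmb/Gzmc-led barcodes were deeper, with median depths of 7869 and 7910 UMIs (PyMT, Jagged1/PyMT), against 3551 and 4056.5 UMIs in the Gzma/Eomes-led barcodes. With barcodes thinned to 1000 UMIs, which left out 1 shallower PyMT barcode, the Gzmb/Gzmc-led share was 3 of 40 in PyMT (7.50%, 1.57 to 20.4) and 9 of 33 in Jagged1/PyMT (27.3%, 13.3 to 45.5). When Eomes without Gzmc was set against Gzmc without Eomes, it was 5 of 41 (12.2%, 4.08 to 26.2) and 6 of 33 (18.2%, 6.98 to 35.5). In the strict gate, with other lineage genes at 0, it was 5 of 36 (13.9%, 4.67 to 29.5) and 8 of 21 (38.1%, 18.1 to 61.6). At an NK gene sum of at least 3, it was 4 of 28 (14.3%, 4.03 to 32.7) and 11 of 22 (50%, 28.2 to 71.8). Under each of these alternatives the intervals overlapped. The Jagged1/PyMT share also depended on which granzyme was used, because 13 of its 15 barcodes under the main rule held Gzmb and 7 held Gzmc.

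**Figure D2:**
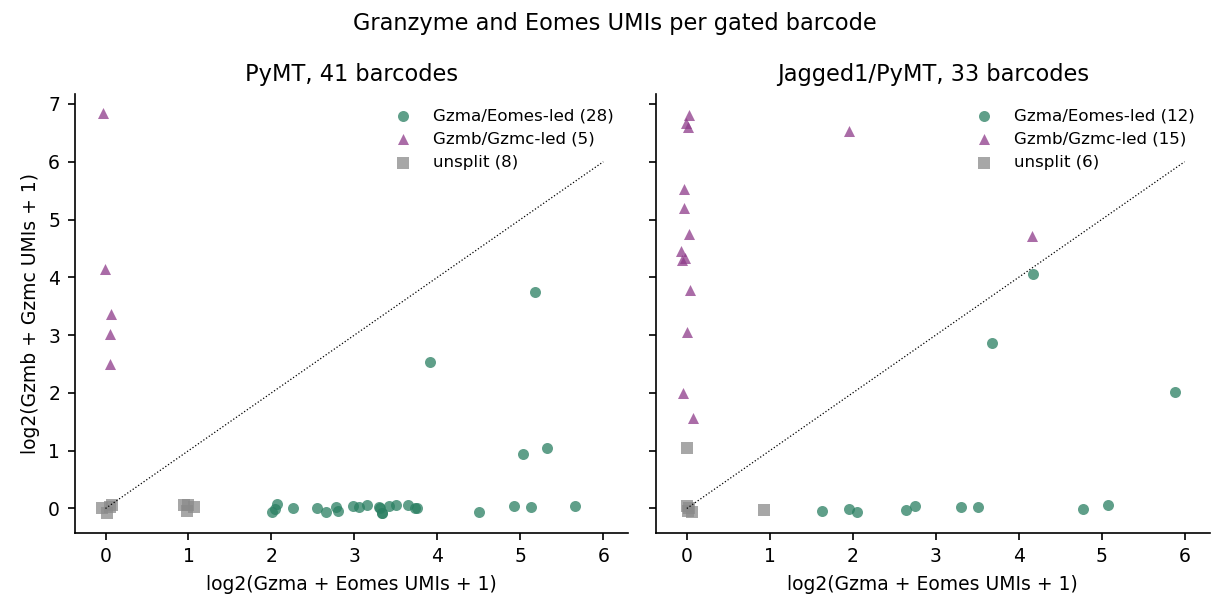
Each point is 1 gated barcode, at log2 of its Gzma and Eomes UMIs plus 1 (horizontal) and log2 of its Gzmb and Gzmc UMIs plus 1 (vertical); points are moved by small random steps so that they do not hide each other, and the dotted line marks equal sums. Most barcodes lie on an axis, and the 15 Gzmb/Gzmc-led barcodes of Jagged1/PyMT stand beside 5 in PyMT.

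The levels of the 4 dividing genes within a class follow from the split and are a description. In the Gzma/Eomes-led barcodes, Gzma was at 2154 and 2355 CPM (PyMT, Jagged1/PyMT), and Eomes at 824 and 720 CPM. In the Gzmb/Gzmc-led barcodes, Gzmb was at 1729 and 2314 CPM and Gzmc at 2161 and 2352 CPM, but 89.4% of the PyMT library's Gzmc UMIs came from 1 barcode.

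Itgae, the CD103 integrin chain, led the features that were higher with Gzmb and Gzmc, ranked by the smaller of the 2 libraries' ratios. It had a UMI in 0 of 28 Gzma/Eomes-led PyMT barcodes and in 5 of 5 Gzmb/Gzmc-led ones, 0 against 29 UMIs, or at least 33.1-fold higher per UMI with a floor of 3 counts in the empty class. In Jagged1/PyMT it had a UMI in 1 of 12 and in 12 of 15 barcodes, at 65.4 and 535 CPM, 8.17-fold higher (log2 ratio 3.03, 1.61 to 4.95). Tcrg-C1, a constant region of the gamma T cell receptor chain, had 0 UMIs in the Gzma/Eomes-led barcodes of both libraries and 9 and 48 in the Gzmb/Gzmc-led ones, at least 10.3-fold and at least 7.47-fold higher. Those UMIs came from 3 of 5 PyMT and 9 of 15 Jagged1/PyMT barcodes, with 66.7% and 45.8% of them in 1 barcode. The 8 listed genes of gamma-delta T cells, 4 of them at 0 in each library, summed to 89.1 and 305 CPM in PyMT (Gzma/Eomes-led, Gzmb/Gzmc-led) and to 65.4 and 596 CPM in Jagged1/PyMT. Over all gated barcodes Tcrg-C4 had 2 PyMT and 22 Jagged1/PyMT UMIs, Trdv4 12 and 9, and Trdc, the delta chain, 3 and 6, while Trac had 0. Whether some of these barcodes are gamma-delta T cells was not tested. Of Tcrg-C1's last 500 bases, 31.7% of the 50-base stretches also occur in Tcrg-C2 or Tcrg-C3 transcripts, so its reads are not certain to be its own.

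Over all features, 977 had at least 50 UMIs in the 2 classes of both libraries, without the 4 genes that made the split. At least 1.5-fold higher in Gzmb/Gzmc-led barcodes in both libraries were 58 (5.94%), and 113 (11.6%) were at least 1.5-fold lower in both. A further 40 passed that size in opposite directions. Without the 4 barcodes of myeloid RNA, 57 were higher and 103 lower in both of 853. The classes were made from the same barcodes and the PyMT Gzmb/Gzmc-led class had 5 barcodes, so these are descriptions.

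Besides Itgae and Tcrg-C1, the features that were higher with Gzmb and Gzmc by the largest ratios were Ly6g5b, Cited4, Fgl2, S100a6, Ddit4, Jaml, Spp1, Hilpda, Cish, Gstp1, Ech1, Cst7 and Capg. In PyMT Hilpda had 2 and 4 UMIs (Gzma/Eomes-led, Gzmb/Gzmc-led), the latter all in 1 barcode, with an interval of the log2 ratio from -0.03 to 6.24. Fgl2, a fibrinogen-like secreted protein, was at 59.4 and 331 CPM (Gzma/Eomes-led, Gzmb/Gzmc-led) in PyMT and at 49.1 and 298 CPM in Jagged1/PyMT. Jaml, an adhesion molecule of epithelium-associated lymphocytes, had 0 and 17 UMIs in PyMT, 82.4% of the latter from 1 barcode, and 5 and 45 in Jagged1/PyMT. Cish, an inhibitor of cytokine signalling, was 3.42-fold higher in PyMT, with 6 UMIs in each class and an interval of the log2 ratio from -0.13 to 3.68, and 3.81-fold higher in Jagged1/PyMT. Cst7, the granule cystatin that restrains cathepsins, was at 104 and 737 CPM in PyMT and 147 and 466 CPM in Jagged1/PyMT. Spp1, osteopontin, had 61 PyMT UMIs in 4 Gzmb/Gzmc-led barcodes, 77.0% of them in 1 barcode, and 0 in the other class. In Jagged1/PyMT Spp1 stood at 1650 CPM against 392 CPM, with 95.8% of the latter from 1 barcode.

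Tbx21, the T-bet factor of all group 1 cells, was detected in both classes. It was at 149 and 305 CPM in PyMT and at 114 and 229 CPM in Jagged1/PyMT, with intervals of the log2 ratio from -0.13 to 2.14 and from -0.21 to 2.43. Cd7, a lymphocyte surface protein, had log2 ratios of 1.58 and 2.67. Cd160, an immunoglobulin-like receptor of cytotoxic cells, had 4.83 and 0.85.

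The features that were lower with Gzmb and Gzmc by the largest ratios were Irf8, Klre1, Itgb1, Socs3, Sgk1, Orai1, Itgal, Nr4a1, Pde4b, Cmtm7, Kdm6b, Adgre5, Klra7, Ccl5 and Lyz2, of which Klre1 is a selecting gene. Ccl5, a chemokine stored by cytotoxic cells, was at 10555 and 966 CPM in PyMT and at 5560 and 573 CPM in Jagged1/PyMT, with log2 ratios of -3.45 (-3.95 to -2.99) and -3.28 (-3.66 to -2.91). In the Gzmb/Gzmc-led class it came from 1 of 5 and 3 of 15 barcodes. Irf8, an interferon regulatory factor, had log2 ratios of -1.76 and -1.85. Klra7, an inhibitory Ly49 receptor, had -3.31 (-8.66 to -0.74) and -3.10 (-5.56 to -1.21), with 1 and 3 UMIs in the Gzmb/Gzmc-led class. Of its 50-base stretches near the transcript end, 27.5% also occur in Klra13-ps, and Ly49 genes differ between mouse strains. Lyz2 counts rest on the barcodes with myeloid RNA: 98.6% of its Jagged1/PyMT Gzma/Eomes-led UMIs came from 1 barcode.

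Among the lists of genes by function, those of tissue residency and circulation stood on opposite sides. Of 9 tested genes of residency and type 1 innate lymphoid cells, 4 were higher with Gzmb and Gzmc in both libraries (Itgae, Inpp4b, Rgs1 and Cd7) and 0 lower, with median log2 ratios of 1.48 and 0.99, against 0.02 and -0.10 over all tested features. Of 5 tested genes of circulating NK cells, 0 were higher and 4 were lower (among them Itgb2, Klf2 and Txk), with medians of -1.73 and -0.99. Klf2, which keeps lymphocytes circulating, was at 542 and 50.9 CPM in PyMT, from 73 and 2 UMIs, and at 769 and 237 CPM in Jagged1/PyMT. Of 4 genes listed as inhibitory receptors, without the selecting gene Klre1, 2 were lower in both libraries (Klra4 and Klra7). The medians were -1.56 and -0.73. Klra4 stands in that list but encodes Ly49D, an activating receptor, so the inhibitory receptor that was lower in both was Klra7. Klrd1, which pairs with NKG2 receptors, had log2 ratios of 0.19 and 0.75.

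Of 21 immediate early genes, 11 were lower in both libraries and 0 higher, with medians of -1.15 and -0.65. Perforin (Prf1) was at 364 and 127 CPM in PyMT, and at 425 and 7.64 CPM in Jagged1/PyMT, where the Gzmb/Gzmc-led class held 1 UMI (log2 ratio -5.80, -11.16 to -3.19). For the other 9 tested granule genes, Cst7 was higher and Serpinb6b lower in both libraries, and 7 were neither. The remaining lists with at least 3 tested genes had at most 3 genes called in the same direction in both libraries.

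**Figure D3:**
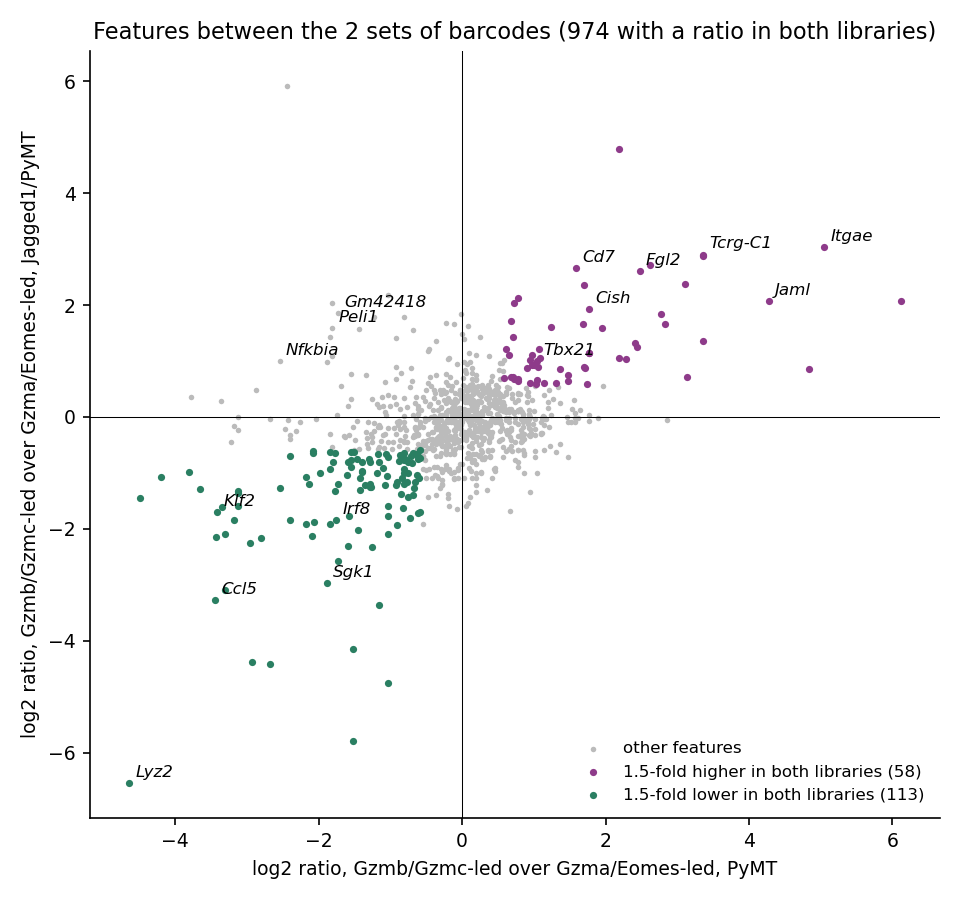
Each point is a feature with at least 50 UMIs, at its log2 ratio of Gzmb/Gzmc-led over Gzma/Eomes-led barcodes in PyMT (horizontal) and Jagged1/PyMT (vertical); 974 of the 977 had a ratio in both. The 58 features higher in both libraries lie at the upper right with Itgae and Tcrg-C1, and the 113 lower in both lie at the lower left with Ccl5 and Lyz2.

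**Figure D4:**
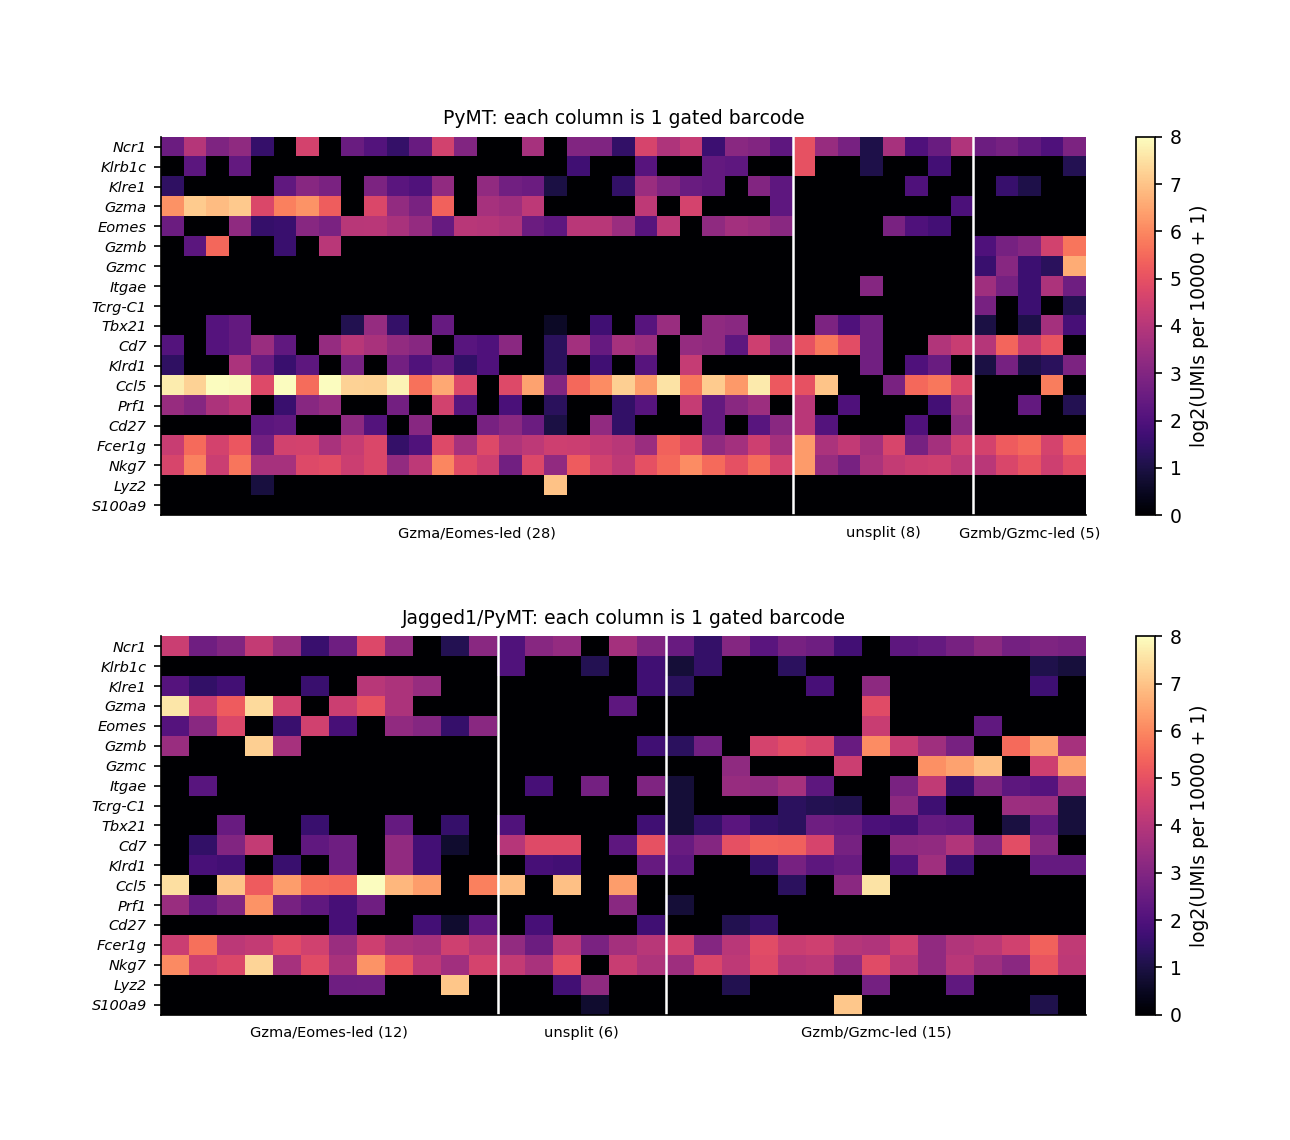
Each column is 1 gated barcode and each row 1 gene, coloured by log2 of UMIs per 10000 plus 1; barcodes are ordered by class and by the sum that placed them. Itgae lies in most columns of the Gzmb/Gzmc-led barcodes, and Tcrg-C1 in 3 of 5 (PyMT) and 9 of 15 (Jagged1/PyMT). Ccl5 lies in most columns of the Gzma/Eomes-led barcodes, and single columns carry Lyz2 or S100a9.

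The gated barcodes were 0.551% (0.396 to 0.746) of called barcodes in PyMT and 0.419% (0.289 to 0.588) in Jagged1/PyMT, a ratio of 0.761 (0.482 to 1.202). The interval includes equal shares. Before the limits on T cell, macrophage and B cell genes, 63 of 7444 PyMT and 77 of 7875 Jagged1/PyMT barcodes reached the NK gene threshold. These limits left out 22 and 44 of them. Over the C1q limit were 4 and 26, and over the Cd3d and Cd3e limit 19 and 31. The gated shares thus depend on limits that left out unequal numbers in the libraries. The Jagged1/PyMT library also held 1922 macrophage barcodes (at least 3 UMIs of C1qa, C1qb and C1qc), against 210 in PyMT, and fewer T cell barcodes, 2487 against 4838. As a share of gated and T cell barcodes together, the set was 0.840% (0.604 to 1.14) in PyMT and 1.31% (0.903 to 1.83) in Jagged1/PyMT, a ratio of 1.56 (0.988 to 2.46). The direction thus turned with the denominator, and neither interval excluded equal shares. As a share of all called barcodes, the Gzma/Eomes-led class was 0.376% (0.250 to 0.543) and 0.152% (0.0788 to 0.266), and the Gzmb/Gzmc-led class 0.0672% (0.0218 to 0.157) and 0.190% (0.107 to 0.314).

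Between the libraries, the pooled gated barcodes of Jagged1/PyMT held more Gzmb and Gzmc RNA and less Gzma, Eomes, Prf1 and Ccl5 RNA. Gzmb was at 433 (347 to 533) and 1450 (1298 to 1616) CPM in PyMT and Jagged1/PyMT, a 3.35-fold higher level. Gzmc was at 418 (334 to 517) and 1358 (1210 to 1518) CPM, 3.25-fold higher. Gzma was at 1432 (1272 to 1606) and 683 (580 to 800) CPM, a log2 ratio of -1.07, and Eomes at 561 (463 to 674) and 238 (179 to 311) CPM, -1.24. Prf1 was at 300 (230 to 385) and 128 (85.6 to 184) CPM, -1.23. Tbx21 was at 197 and 172 CPM and Ncr1 at 526 and 511 CPM, within counting error of each other. The share of each class moved with these levels. Within the Gzma/Eomes-led barcodes the log2 ratios of Gzma, Eomes and Prf1 were 0.13, -0.20 and 0.22, and within the Gzmb/Gzmc-led barcodes those of Gzmb and Gzmc were 0.42 and 0.12. Because these genes set the split, that comparison is a description, and Gzmb was 1.46 higher on the log2 scale within the Gzma/Eomes-led barcodes.

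Ccl5 was the most abundant of the transcripts that were lower in Jagged1/PyMT. It had 1548 UMIs in 34 of 41 PyMT barcodes, or 7616 CPM (7241 to 8005), and 528 UMIs in 16 of 33 Jagged1/PyMT barcodes, or 2327 CPM (2133 to 2535). The log2 ratio was -1.71 (-1.86 to -1.57). It was smaller within each class, -0.92 in the Gzma/Eomes-led and -0.75 in the Gzmb/Gzmc-led barcodes, and -0.90 when each barcode had equal weight. Cd27, a costimulatory receptor of less mature NK cells, had 44 UMIs in 18 barcodes and 8 UMIs in 8 barcodes, and was 6.14-fold higher in PyMT. Within the Gzma/Eomes-led barcodes alone, the log2 ratio of Cd27 was -2.11.

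**Figure D5:**
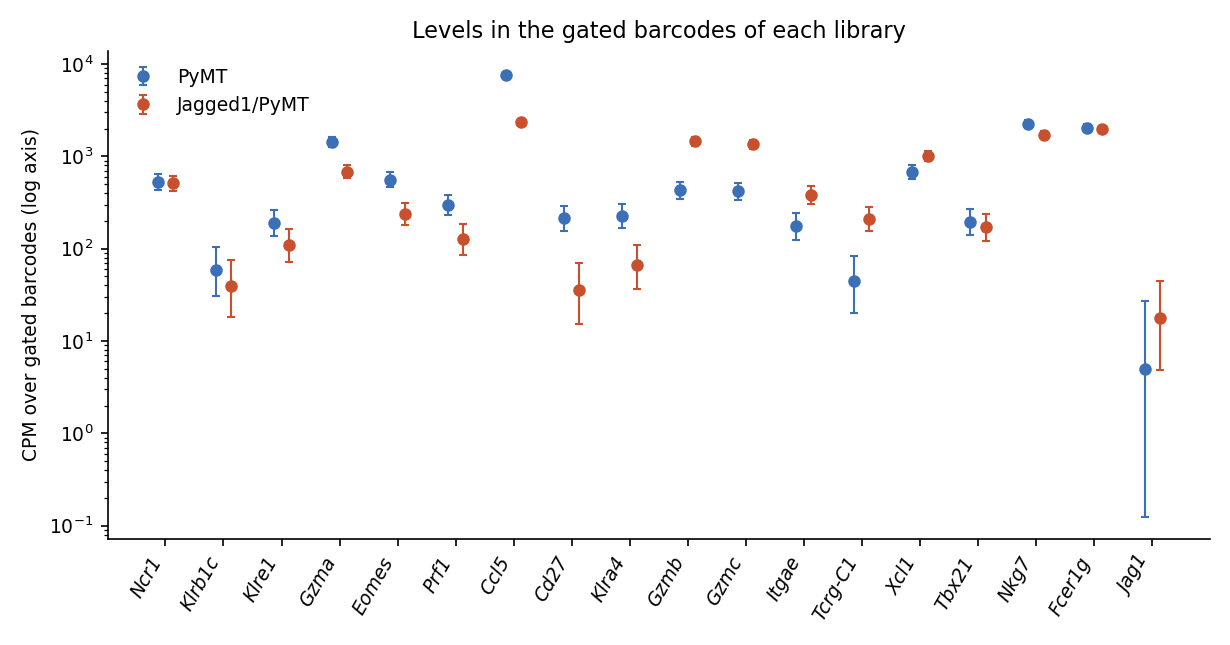
Level of each gene over the gated barcodes of PyMT (41 barcodes) and Jagged1/PyMT (33 barcodes) in CPM on a log axis, with 95% Poisson intervals for counting error. Gzma, Eomes, Prf1, Ccl5, Cd27 and Klra4 stand lower and Gzmb, Gzmc, Itgae and Tcrg-C1 higher in Jagged1/PyMT, while Ncr1 and Fcer1g overlap.

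Of 1171 features with at least 50 UMIs over both libraries, 120 (10.2%) were at least 1.5-fold higher in Jagged1/PyMT and 175 (14.9%) at least 1.5-fold lower. Without the 4 barcodes of myeloid RNA the counts were 83 (8.32%) and 146 (14.6%) of 998. The median log2 ratio of all tested features was -0.02. Ranked by the interval bound of the log2 ratio nearest 0, the 10 leading higher features were Hspa1a, Isg15, Cst3, Hist1h2ap, Spp1, Gzmb, Gzmc, Tcrg-C1, Tuba1b and Ddit4. The 10 leading lower ones were Ccl5, Cd27, Nr4a3, Ywhaq, Nr4a2, Fam107b, Crem, Adgre5, Klra4 and Chd1.

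Several of the higher features came from few barcodes. Cst3, the cystatin C gene of myeloid cells, was 8.50-fold higher, but 89.5% of its Jagged1/PyMT UMIs came from 1 barcode, and its log2 ratio went from 3.09 to 0.55 without the barcodes of myeloid RNA. Isg15, an interferon-induced ubiquitin-like protein, had 5 UMIs in 3 PyMT barcodes and 89 in 15 Jagged1/PyMT barcodes, 48.3% of them in 1 barcode. Without the barcodes of myeloid RNA, 1 gene of the interferon response list that holds Isg15 was tested, and 0 were called. Hist1h2ap, a replication histone, had 65.8% and Tuba1b, a tubulin, 52.5% of their Jagged1/PyMT UMIs in 1 barcode. Hspa1a, the inducible heat shock protein, had 1 and 71 UMIs, in 1 and 10 barcodes. It was also higher in barcodes under 100 UMIs, taken as free RNA, at 49.5 and 286 CPM (PyMT, Jagged1/PyMT), and its part in the result was not tested.

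Spp1 was 3.55-fold higher over all gated barcodes and had a log2 ratio of 0.09 within the Gzmb/Gzmc-led barcodes. Tcrg-C1 was 4.78-fold higher over all and had 0.68 within that class. Ddit4, a stress-induced inhibitor of mTOR signalling, was 3.64-fold higher over all, with log2 ratios of 1.15 within the Gzmb/Gzmc-led and -1.45 within the Gzma/Eomes-led barcodes.

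Ywhaq, a 14-3-3 adaptor protein, was lower in both classes: 104 UMIs in 37 PyMT barcodes and 36 in 17 Jagged1/PyMT barcodes, with log2 ratios of -1.69 over all, -1.56 within the Gzma/Eomes-led and -1.49 within the Gzmb/Gzmc-led barcodes. The nuclear receptor genes of the Nr4a family, which are induced within minutes to hours of stimulation, went opposite ways. Nr4a2 was at 458 and 141 CPM (PyMT, Jagged1/PyMT) and Nr4a3 at 251 and 61.7 CPM, while Nr4a1 was at 246 and 547 CPM. The log2 ratios were -1.70, -2.02 and 1.15, and each kept its sign within both classes. Nr4a3 and Nr4a2 were also lower in the free RNA of Jagged1/PyMT, at 169 and 63.3 CPM for Nr4a3 and 113 and 47.7 CPM for Nr4a2, and their part in the result was not tested.

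Counts of list members called between the libraries stand beside 10.2% higher and 14.9% lower over all tested features, and nothing is read from a list near those shares. Of 5 tested genes listed as inhibitory receptors, without the selecting gene Klre1, 0 were higher and 3 lower in Jagged1/PyMT (Klra4, Klra7 and Tigit). The median log2 ratio was -0.62. Klra4, an activating Ly49 receptor although it stands in this list, had 46 UMIs in 18 PyMT and 15 UMIs in 8 Jagged1/PyMT barcodes. Its log2 ratio was -1.29 within the Gzma/Eomes-led barcodes and turned to 1.07 (-1.89 to 6.57) within the Gzmb/Gzmc-led ones, which held 1 and 7 of its UMIs. Tigit, which binds nectin family ligands, had 29 and 21 UMIs (log2 ratio -0.62, -1.51 to 0.24), so its interval includes 0. Of 7 tested activating receptors and adaptors other than the selecting genes, 0 were higher and 2 lower, with a median of -0.18. These were Tyrobp, the DAP12 adaptor, at 2391 and 1490 CPM, and Sh2d2a, an adaptor of T and NK cells, at 610 and 264 CPM. Klrk1, the NKG2D receptor, was at 285 and 291 CPM. Pdcd1, Havcr2 and Ctla4, checkpoint receptors of exhausted T cells, had 0 UMIs in both libraries.

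Of 6 tested genes of circulating NK cells, 0 were higher and 4 lower (among them Cd27, Txk and Itgb2), with a median of -0.98. Of 9 tested genes of residency and type 1 innate lymphoid cells, 5 were higher and 0 lower (Itgae, Cd69, Inpp4b, Rgs2 and Xcl1), with a median of 0.59. Without the barcodes of myeloid RNA these were 0 and 4 of 5 and 4 and 0 of 9. Summed over the circulating list, free RNA was at 2099 and 1672 CPM and the gated barcodes at 2662 and 1485 CPM (PyMT, Jagged1/PyMT). For the residency list free RNA was at 1569 and 2812 CPM and the gated barcodes at 4467 and 5906 CPM. Free RNA moved with both results, and its part in them was not tested. Itgae was at 177 (124 to 245) and 383 (307 to 473) CPM, a log2 ratio of 1.11, and within the Gzmb/Gzmc-led barcodes it was lower in Jagged1/PyMT, -0.46. Xcl1, the chemokine that attracts cross-presenting dendritic cells, was at 674 and 1014 CPM. It was -0.52 within the Gzmb/Gzmc-led and 1.39 within the Gzma/Eomes-led barcodes. Itga1, the integrin chain that marks resident group 1 cells, had 3 UMIs in each library, too few for a ratio. Cxcr6, a residency chemokine receptor, had 2 and 7 UMIs (PyMT, Jagged1/PyMT), and Il7r, the interleukin 7 receptor chain, 15 and 2. The maturation markers Klrg1, S1pr5 and Itgam had 7 and 5, 4 and 2, and 1 and 2 UMIs. All 5 were under the minimum of 50 UMIs.

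Of 5 tested cytokines and chemokines, Xcl1 was higher (1.504-fold, just past the threshold) and Ccl4, Ccl5 and Tgfb1 were lower. Without the barcodes of myeloid RNA 0 of 5 were higher and 3 lower. Ccl4 had 111 and 47 UMIs, of which 72.3% in Jagged1/PyMT came from 1 barcode. Tgfb1 was at 1269 and 692 CPM (log2 ratio -0.88). Ifng, the interferon gamma gene, had 5 and 16 UMIs, 81.2% of the latter in 1 barcode, and was under the minimum. Of 11 cytokine receptor and signalling genes, 2 were higher, the feedback inhibitors Cish and Socs1, and 6 were lower: Il2rb, Ifngr1, Smad7, Socs3, Stat4 and Jak1. Without the barcodes of myeloid RNA 1 of 10 was higher and 6 lower. Il2rb, the chain shared by the interleukin 2 and 15 receptors, was at 1343 (1188 to 1512) and 767 (657 to 890) CPM, with log2 ratios of -0.38 and -0.36 within the classes. Cish was at 83.6 and 256 CPM and had 1.14 and 1.29 within the classes. Of 10 tested transcription factors, Bhlhe40 was higher and Eomes and Irf8 were lower, near the 10.2% and 14.9% over all tested features.

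Of 23 tested immediate early genes, 9 were higher and 2 lower, with a median of 0.34. The higher ones included Fos at 236 and 661 CPM, Jun at 192 and 692 CPM, and Zfp36, which destabilises cytokine transcripts, at 261 and 780 CPM. Without the barcodes of myeloid RNA 6 of 21 were higher and 2 lower, and the median was 0.07. The free RNA level of Fos was 590 and 1196 CPM and that of Jun 362 and 877 CPM, moving with the result, and their part in it was not tested. Of 10 glycolysis and hypoxia genes, 4 were higher (Pgk1, Tpi1, Aldoa and Gpi1) and Vegfa was lower. Without the barcodes of myeloid RNA 3 of 9 were higher and 2 lower. Summed over this list, free RNA was at 3067 and 5259 CPM and the gated barcodes at 3385 and 4170 CPM (PyMT, Jagged1/PyMT). The part of free RNA in this result was not tested. Of 9 heat shock genes, Hspa1a and Dnajb1 were higher and 0 lower, and without the barcodes of myeloid RNA 1 of 8 was higher. Of 4 interferon response genes, 3 were higher, and of 5 cell cycle genes, 4, but Ube2c, which marks mitosis, had 96.0% of its 50 Jagged1/PyMT UMIs in 1 barcode. Over the 24 listed cell cycle genes, 1 barcode held 435 of the 876 Jagged1/PyMT UMIs. The median sum per barcode was 10 in PyMT and 9 in Jagged1/PyMT, so the higher cell cycle levels leaned on 1 barcode. Without the barcodes of myeloid RNA 1 interferon gene was tested and it was not called. Of 8 class I presentation genes, 0 were higher and Psmb10 was lower, near the 14.9% lower over all tested features.

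Notch pathway genes were read because Jagged1 is a Notch ligand. Jag1, on chromosome 2 at 137081456 to 137116644 (minus strand), had 1 UMI in 1 PyMT barcode and 4 UMIs in 3 Jagged1/PyMT barcodes (2.44% and 9.09% of gated barcodes). All 4 lay in Gzmb/Gzmc-led barcodes. In the same Jagged1/PyMT library Jag1 had a UMI in 8.69% of T cell, 1.32% of B cell and 6.09% of macrophage barcodes, and in PyMT in 0.103%, 0.144% and 6.19%. The gated counts are too few to set apart from these shares. Notch1 had 3 and 5 UMIs and Notch2 9 and 13 UMIs, both under the minimum.

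Nrarp, a direct Notch target that dampens Notch signalling, was the pathway gene that passed the minimum, with 92 UMIs in each library. It was found in 26 of 41 PyMT and 23 of 33 Jagged1/PyMT barcodes, at 453 (365 to 555) and 406 (327 to 497) CPM, a log2 ratio of -0.16 (-0.59 to 0.27). The interval spans ratios from 0.664-fold to 1.21-fold. In PyMT Nrarp was lower in the Gzmb/Gzmc-led barcodes (log2 ratio -1.75), and in Jagged1/PyMT at a log2 ratio of 0.03. Hes1, a further Notch target, had 25 UMIs in 14 PyMT and 10 UMIs in 7 Jagged1/PyMT barcodes. Dll1, Dll4, Notch3 and Hes5 had 0 UMIs in both libraries.

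Compared with CD8 T cell barcodes of the same library, 1169 features were tested, and 358 (30.6%) were at least 1.5-fold higher and 64 (5.47%) at least 1.5-fold lower in the gated barcodes of both libraries. The minimum of 50 UMIs was read in the gated barcodes, so the counts lean to the higher side. The CD8 T cell barcodes held Ccr7, a homing receptor of naive T cells, at 1306 and 1170 CPM (PyMT, Jagged1/PyMT). Gzmb had a UMI in 1.72% and 4.91% of them. The ratios below are therefore against CD8 T cell barcodes of which few held Gzmb, and not against cytotoxic CD8 T cells alone. Nrarp was at 32.3 and 41.0 CPM in CD8 T cell barcodes (PyMT, Jagged1/PyMT), giving log2 ratios of 3.81 and 3.31 for the gated barcodes. Klrk1 was at 4.08 and 6.46 CPM there (6.13 and 5.49), and Tbx21 at 3.91 and 9.55 CPM (5.65 and 4.17). Serpinb9, which protects a killer cell from its own granzyme B, was at 15.7 and 17.4 CPM (4.09 and 3.97). Vegfa, the vessel growth factor, was at 3.40 and 3.37 CPM (5.92 and 4.85), and Ern1, a sensor of the unfolded protein response, at 6.46 and 4.21 CPM (4.85 and 4.97).

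Gzma was at 20.2 and 3.09 CPM in CD8 T cell barcodes, and Gzmc at 2.72 and 15.7 CPM. Gzmc was not confined to the gate: T cell barcodes held 131 of its UMIs in 17 PyMT barcodes and 75 in 16 Jagged1/PyMT barcodes. Barcodes just outside the gate held 35 in 2 PyMT barcodes and 227 in 1 Jagged1/PyMT barcode. Gzmb was at 51.5 and 356 CPM in CD8 T cell barcodes, so those of Jagged1/PyMT also held more of it in sum than those of PyMT. These UMIs came from 19 of 1105 PyMT and 32 of 652 Jagged1/PyMT barcodes. Ccl5, in contrast, was at 347 and 555 CPM in CD8 T cell barcodes, higher in Jagged1/PyMT, where the gated barcodes held less. Lower in the gated barcodes were Klf2 (log2 ratios -1.36 and -1.87) and Rps19, a ribosomal protein gene picked after its value was seen (-1.53 and -1.20).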

How the data were processed

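Immune cells sorted by flow cytometry from mammary tumours were profiled with the 10x Genomics 3' kit, version 3.1 per the labels, with 8000 cells. The authors deposited 2 matrices of raw UMI counts, made with Cell Ranger 3.0.2 per the submitters' processing notes; no genome build or annotation is named in what was used here. Each matrix holds both samples of a genotype, so no sample was compared with another. The libraries held 36012036 (PyMT) and 55506773 (Jagged1/PyMT) UMIs over 31053 features, 7444 and 7875 called barcodes, and medians of 3841 and 4200 UMIs per called barcode.

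UMIs were summed over the gated barcodes (203263 and 226869) and given as CPM with exact Poisson intervals. Shares have exact Clopper-Pearson intervals, ratios of CPM exact conditional intervals and ratios of shares log-normal ones, all at 95% and for counting error only. A feature was tested with 50 UMIs or more over the groups compared and called at 1.5-fold, with no p-value. Counts of 0 were set to a floor of 3 counts per group, giving bounds. Features named between libraries are the 10 in each direction with the interval bound farthest from 0, seen in at least 10 barcodes. The higher of a feature's 2 library levels was not under the higher of its 2 free RNA levels. The lower level could be under it, as for Hspa1a in PyMT, at 4.92 CPM against 49.5 CPM of free RNA. Between classes, the features named are the 15 in each direction ranked by the smaller ratio of both libraries. The selecting genes, genes listed by role and up to 6 genes per list were also named; Trac, Igkc, Gata3 and the other genes outside these rules were picked after their values were seen. Scrublet's automatic threshold failed (3 and 0 calls), so doublets were kept in the main counts and the barcodes of highest score left out as an alternative.

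In simulated Poisson counts of 1171 genes for the library comparison, 97.0% of 2-fold changes were called and 7.42% of unchanged genes. The simulation held no variation between barcodes, animals or libraries, so these shares cover counting error only. Promoter windows are from RefSeq (GRCm38.p6), and positions and transcript ends from GENCODE vM21. The gate, the split and the 29 gene lists were chosen with earlier results of these data known. Python 3.11.15, numpy 2.4.6, scipy 1.17.1, pandas 2.3.3, scanpy 1.11.5 and matplotlib 3.10.9 were used. 16 alternative settings were tried. Some items are not reported here.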

Additional observations from a re-analysis of the deposited data

Results flagged for a closer look

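Of the features past 1.5-fold between the classes in opposite directions, 3 had counting intervals that left out 0 in both libraries and were seen in at least 10 barcodes. The difference between the libraries was not tested. Peli1, a ubiquitin ligase of innate receptor signalling, had a log2 ratio of Gzmb/Gzmc-led over Gzma/Eomes-led barcodes of -1.81 in PyMT and 1.59 in Jagged1/PyMT. Nfkbia, the inhibitor of NF-kB, had -2.55 and 0.99. Gm42418, a locus that collects ribosomal RNA reads, had -1.74 and 1.86. The PyMT values rest on 5 Gzmb/Gzmc-led barcodes.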

How the results depend on the processing

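No paired analysis was possible because both samples of a genotype share 1 matrix with no map from barcodes to samples. Leaving out a replicate was not possible for the same reason. Over 16 settings, 972 of the single values kept their direction and size within counting error, 166 moved and 14 reversed. Of the values that answer a comparison, 62 kept to the main value and 36 did not. The ratio of the gated share ranged from 0.551 to 0.795.

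The Gzmb/Gzmc-led share in Jagged1/PyMT was 27.3% after thinning and 18.2% with Eomes against Gzmc alone. Features higher in Jagged1/PyMT (120) were 66 with an NK gene sum of 3 or more, 13 after thinning to 1000 UMIs, 44 at 100 UMIs, 1488 at 1 UMI, 53 at 2-fold, 66 within Gzma/Eomes-led and 55 within Gzmb/Gzmc-led barcodes. Those lower (175) were 116 in the strict gate, 20 after thinning, 65 at 100 UMIs, 1762 at 1 UMI, 50 at 2-fold, 60 within Gzma/Eomes-led and 56 within Gzmb/Gzmc-led barcodes. With TMM scaling 141 were higher and 147 lower. Between classes, features higher in both libraries (58) were 35 at a sum of 3 or more, 34 in the strict gate, 14 thinned, 38 with Eomes against Gzmc, 20 at 100 UMIs, 248 at 1 UMI and 27 at 2-fold. Those lower (113) were 5 thinned, 45 at 100 UMIs, 358 at 1 UMI and 51 at 2-fold. Against CD8 T cell barcodes, 208 were higher at a sum of 3 or more and 232 in the strict gate. List medians past 1.5-fold (7 lists) were 4 at a sum of 3 or more, 4 in the strict gate, 0 thinned, 2 as a mean over barcodes, 3 at 100 UMIs, 3 within Gzma/Eomes-led and 4 within Gzmb/Gzmc-led barcodes. The 2-fold counts between classes, the values within a class and those without the barcodes of myeloid RNA were chosen after seeing the data. Higher minimums and fewer barcodes leave fewer features to test; the other causes were not tested.

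Log2 ratios that reversed within Gzma/Eomes-led barcodes were Prf1 0.22, Gzma 0.13, Cst3 -0.39 and Ddit4 -1.45. Within Gzmb/Gzmc-led barcodes they were Itgae and the residency list median (both -0.46), Klre1 0.43, Xcl1 -0.52, Klra4 1.07, and Gzma and Eomes (both 0.0018, PyMT at its floor). Ifng was -2.04 in the strict gate. Between classes Pde4b was 0.15 in PyMT after thinning, and Lyz2 0.60 in Jagged1/PyMT at a sum of 3 or more. The cause was not tested. Depth limits all of this: 3 counts are 14.8 and 13.2 CPM.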
